A study of Mus musculus with 6 samples.

Results

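The expressed Zfp zinc finger genes of RAW 264.7 cells, a mouse macrophage line, are described here. The genes were chosen by symbol and level: each carried a symbol of the form Zfp followed by a number and had a mean of at least 100 normalised reads over all 6 libraries. That rule took 239 of the 366 Zfp symbols and of the 22027 genes in the deposited table. Of the 127 left out, 45 were at 0 in every library. The rule used each gene's mean over both groups together and not the difference between them. All 239 genes entered the test, and 198 of them reached 100 normalised reads in every library. A normalised read is a read count that the authors divided by 1 size factor per library. Every library came from cells of the WT genotype, and all were harvested 48 h after transfection with 10 pmol of siRNA. By their titles, 3 libraries are siCTL, from cells given a non-targeting siRNA, and 3 are siTET3, from cells given an siRNA against Tet3, which encodes an enzyme that oxidises methylated cytosine. The treatment label reads siTET3 for all 6, so the groups rest on the titles. Both groups are the same line, a virus-transformed macrophage line rather than primary cells, and only 1 siRNA against Tet3 was used. Nothing says that replicates came from separate cultures, so the p-values measure no more than the spread of 6 libraries and that spread may be technical. The comparison is of cells given the Tet3 siRNA with cells given the non-targeting one.

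Zfp symbols mark mouse proteins that fold parts of their chain around zinc ions. Most are of the C2H2 type, in which each finger holds its zinc with a pair of cysteines and a pair of histidines and reads a few bases of DNA, so that a long array of fingers can recognise a long site. Many also carry a KRAB box, which recruits Trim28 (KAP1) and with it the histone methyltransferase Setdb1, HP1 proteins and DNA methylation; proteins of this kind silence retroelements and protect imprints. Others have no KRAB box and act as activators, as loop anchors, in RNA decay or in ubiquitin signalling. In macrophages the best known is Zfp36 (tristetraprolin), which binds AU-rich stretches of cytokine mRNAs and speeds their decay.

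Translated coding sequences held a KRAB box in 130 of the 239 genes and a SCAN domain, a dimerisation module, in 12. A finger was counted where 2 cysteines, spaced by 2 to 4 residues, were followed after 12 residues by a histidine and, 3 to 5 residues on, by a histidine or cysteine. This pattern was found 2587 times in all, with a median of 12 fingers in genes with a KRAB box and 8 in the others. The longest array was that of Zfp142, with 41 matches, followed by Zfp462 with 34. In 4 genes (Zfp36, Zfp330, Zfp703 and Zfp839) no match was found, and Zfp36 held 2 fingers of the CCCH type instead.

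RefSeq promoters (GRCm38.p6, 250 bases before to 50 after the first listed start) were matched by symbol for 201 of the 239 genes. These promoters had a median of 53.3% G and C bases in the 116 genes with a KRAB box, 60.7% in the 85 without one and 61.0% over the promoters of all tested genes. The medians for CpG dinucleotides were 12, 20 and 21. Those of Zfp595 and Zfp65 are shown because both genes lie in the chromosome 13 cluster described below, and those of Zfp523 and Zfp219 because DESeq2 called both lower in siTET3. Capitals mark the letters searched for on both strands: ACTACAA as the core of the Zfp143 site, CCGGAAG as the ETS core, TGACGTCA as the cAMP response element, TATAAA as the TATA box, GGGCGG as the GC box, CCAAT as the CCAAT box, and GGACTACA as a word shared by the first pair.
Zfp595 (minus strand, chr13:67332511-67332810): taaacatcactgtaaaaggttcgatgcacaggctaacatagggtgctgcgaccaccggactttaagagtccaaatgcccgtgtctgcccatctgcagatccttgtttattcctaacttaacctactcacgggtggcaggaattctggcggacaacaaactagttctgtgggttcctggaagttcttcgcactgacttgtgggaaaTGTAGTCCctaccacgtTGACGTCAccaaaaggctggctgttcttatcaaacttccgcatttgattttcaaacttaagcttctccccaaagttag
Zfp65 (minus strand, chr13:67729124-67729423): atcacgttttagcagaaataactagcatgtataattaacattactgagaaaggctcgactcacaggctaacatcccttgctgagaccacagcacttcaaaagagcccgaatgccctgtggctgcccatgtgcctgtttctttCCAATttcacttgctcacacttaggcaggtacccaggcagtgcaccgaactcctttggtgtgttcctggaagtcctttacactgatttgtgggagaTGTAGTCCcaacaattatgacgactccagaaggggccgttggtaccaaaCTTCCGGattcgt
Zfp523 (plus strand, chr17:28176946-28177245): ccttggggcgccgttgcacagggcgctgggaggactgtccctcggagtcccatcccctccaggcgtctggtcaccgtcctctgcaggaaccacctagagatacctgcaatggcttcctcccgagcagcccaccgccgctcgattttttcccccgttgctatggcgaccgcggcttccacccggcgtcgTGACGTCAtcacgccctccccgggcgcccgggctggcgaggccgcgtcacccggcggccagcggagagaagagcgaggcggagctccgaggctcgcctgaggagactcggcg
Zfp219 (minus strand, chr14:52020684-52020983): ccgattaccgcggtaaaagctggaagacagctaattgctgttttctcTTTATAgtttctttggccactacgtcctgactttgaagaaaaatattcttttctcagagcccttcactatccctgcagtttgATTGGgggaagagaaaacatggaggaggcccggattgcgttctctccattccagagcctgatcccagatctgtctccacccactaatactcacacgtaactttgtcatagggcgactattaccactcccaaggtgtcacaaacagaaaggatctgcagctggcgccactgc

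The Zfp595 and Zfp65 promoters shared 4 runs of at least 10 bases on the same strand, the longest of 13 bases, while none was shared between any other pair of the 4. Both hold GGACTACA read from the opposite strand, a word picked after these sequences were seen. It stood in 6 of the 8 promoters matched in that cluster (Zfp759, Zfp595, Zfp953, Zfp429, Zfp738 and Zfp65). In the chromosome 7 cluster at chr7:29768552-30169750 it stood in 4 of 11. Over the classes it was in 12 of 116 promoters with a KRAB box (10.3%), 4.71% of those without one, 2.41% of tested genes and 1.38% of all 27025 promoters in the table. Outside the chromosome 13 cluster, from which it was picked, it was in 6 of 108 KRAB-box promoters (5.56%). It overlaps ACTACAA by all but the last base, and ACTACAA was in 6.47%, 4.67% and 3.45% of the promoters of the Zfp genes, the tested genes and the whole table. CCAAT was in 56.0% of KRAB-box promoters, 44.7% of the others, 39.4% of tested genes and 37.9% of the table. GGGCGG was in 40.5%, 60.0%, 65.3% and 35.9% of the same groups. The ETS core was in 21.4% of Zfp promoters, 19.5% of tested genes and 9.12% of the table, the cAMP response element in 3.48%, 3.48% and 1.88%, and TATAAA in 6.47%, 6.63% and 14.2%. A match is a description of letters and not a site shown to be bound.

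Recovered totals ran from 29587171 to 61709131 reads per library, so 1 read was worth between 0.634 and 1.27 normalised reads. All 10 macrophage markers were detected, with summed levels of 500231 to 595640 normalised reads in siCTL and 508814 to 542623 in siTET3. The 4 epithelial and 2 erythroid markers were at 0, and endothelial, T cell and B cell markers summed to at most 13.1. Among the 4 fibroblast markers, Col1a2 and Pdgfra stood apart in 1 library. The 4 summed to 395 normalised reads in siCTL replicate 2, from Col1a2 at 286 and Pdgfra at 109. In the other 5 libraries the 4 summed to between 7.13 and 8.99. Col1a1 was at 0 throughout, and Dcn added next to nothing to the sum of 395. Tet3 itself was at 2036 ± 130 (SD, n = 3) normalised reads in siCTL and 1957 ± 21.2 in siTET3, or 96.1% of control. The exact two-sided permutation p was 0.4, where 3 libraries against 3 allow no less than 0.1. The libraries are therefore called by their labels.

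No expressed Zfp gene passed the adjusted threshold of 0.05 in either direction with limma, and the lowest adjusted p was 0.263, for Zfp219. Over all 11591 tested genes 0.293% were called higher and 0.0604% lower. An unadjusted p under 0.05 was reached by 23 Zfp genes, or 9.62%, against 13.2% of all tested genes. edgeR on the recovered reads likewise called none, against a background of 0.285% higher and 0.0604% lower. DESeq2 on the same reads called none higher and 2 lower, Zfp523 and Zfp219, against 1.86% and 1.89% of all genes it tested. In the authors' deposited table none was higher and 1, Zfp219, was lower, against 1.55% and 1.39%. With siCTL replicate 2 left out, limma called none higher and Zfp523 lower, against 1.70% and 1.06% of all genes. When the trend with base content was removed as well, Zfp91 was called higher and none lower, against 2.10% and 1.46%.

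The groups did not overlap in 55 Zfp genes that were higher in siTET3 (23.0%, against 16.1% of all tested genes) and in 27 that were lower (11.3%, against 15.5%). Leaving out siCTL replicate 2 made these 61 (25.5%, against 21.2%) and 36 (15.1%, against 20.6%). The median log2 change of the 239 genes, siTET3 over siCTL, was 0.15, with the quartiles at -0.11 and 0.49. Over all tested genes the median was -0.00. A log2 change above 0.5 was seen in 59 of the 239 Zfp genes and one below -0.5 in 5. Of all 11591 tested genes, 947 and 804 passed these limits. Of the 10080 tested genes with a mean of 100 or more, 678 and 424 did. The median of the Zfp genes was 0.08 without siCTL replicate 2.

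Those positive values lay mostly in the genes with a KRAB box. Their median log2 change was 0.35 and 101 of 130 were positive, while the 109 genes without a KRAB box had a median of 0.01 with 55 positive. Of the 59 genes above 0.5, 49 had a KRAB box. Among all members, 8 reached the level required for inclusion in the siTET3 mean only, and 3 in the siCTL mean only. The 8 include the KRAB-box genes Zfp953, Zfp58 and Zfp983. Each of these members was brought in by the group in which it is high. The class medians, the counts of positive genes and the 59 above 0.5 are therefore not free of that choice. By limma no gene of either class passed the adjusted threshold; the pair that DESeq2 called, Zfp523 and Zfp219, has no KRAB box. Summed over the 130 KRAB-box genes, the libraries held 52986, 35055 and 49681 normalised reads in the siCTL libraries, in order of replicate, and 55122, 55147 and 59316 in siTET3. Replicate 2 of siCTL was the low one, and the other siCTL libraries came close to the siTET3 range without entering it. The genes without a KRAB box summed to 138393, 145705 and 140072 in siCTL and 145550, 143640 and 146164 in siTET3, and there the groups overlapped.

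Gene by gene, siCTL replicate 2 was the lowest of the 6 libraries for 92 of the 130 KRAB-box genes (70.8%), for 43 of the 109 others (39.4%) and for 39.1% of all tested genes. It was also the highest library for 41.3% of the genes without a KRAB box and for 39.2% of all tested genes, so it was an extreme library in general, and for KRAB-box genes it lay at the low end. The median difference of this library from the other siCTL pair was -0.69 on the log2 scale for KRAB-box genes, 0.05 for the others and -0.01 for all tested genes. Without it the median changes were 0.12 with a KRAB box and 0.02 without. This is also the library with the high Col1a2 and Pdgfra given above, and the part of those markers in these values was not tested.

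**Figure D1:**
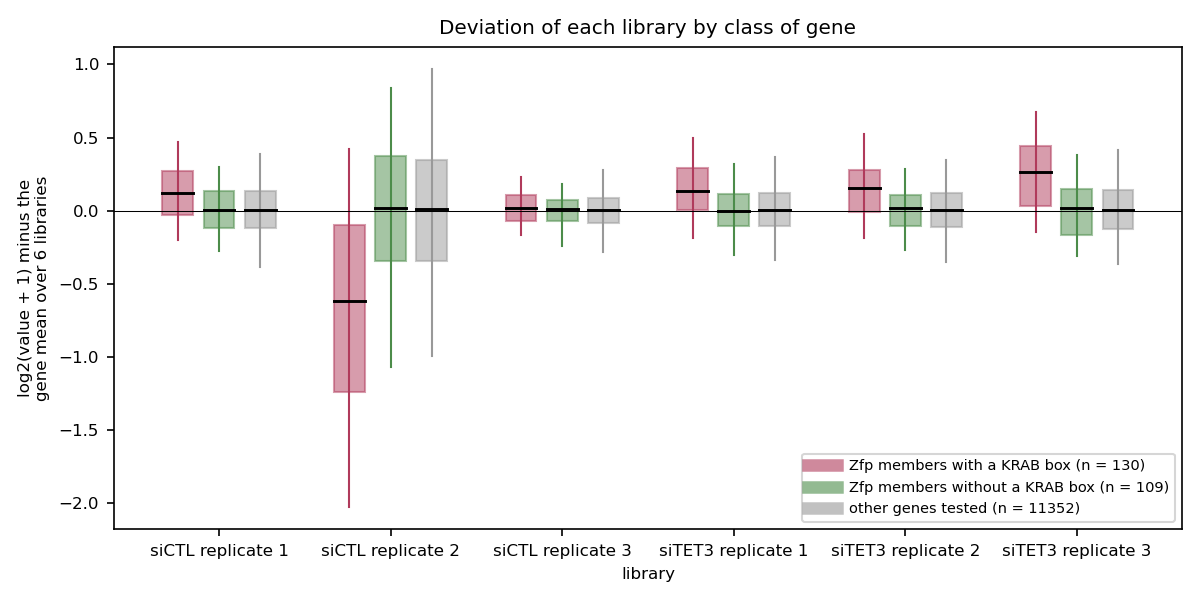
Deviation of each library from a gene's mean over 6 libraries, on the log2(value + 1) scale, for KRAB-box Zfp genes, other Zfp genes and the other tested genes. Black lines are medians, boxes the quartiles and thin lines the 5th to 95th percentile; in siCTL replicate 2 the KRAB-box median was -0.62, against 0.02 and 0.01 in the other classes.

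The change varied with the base content of the transcript. Transcripts of KRAB-box genes had a median of 42.3% G and C bases, those of the other Zfp genes 51.7% and all tested genes 50.5%. Across the 239 genes the log2 change and this content had a Pearson r of -0.80 (Spearman -0.84), which describes genes that share the same 6 libraries. The r was -0.76 within the 130 KRAB-box genes and -0.80 within the 109 others. It was -0.65 over the 239 without siCTL replicate 2, and -0.46 over the 11529 tested genes with a transcript in the annotation. With C2H2 finger number r was 0.24, and with log10 transcript length 0.18. Within siCTL, the log2 difference of replicate 1 from replicate 3 had an r of -0.44 with base content over the 239.

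**Figure D2:**
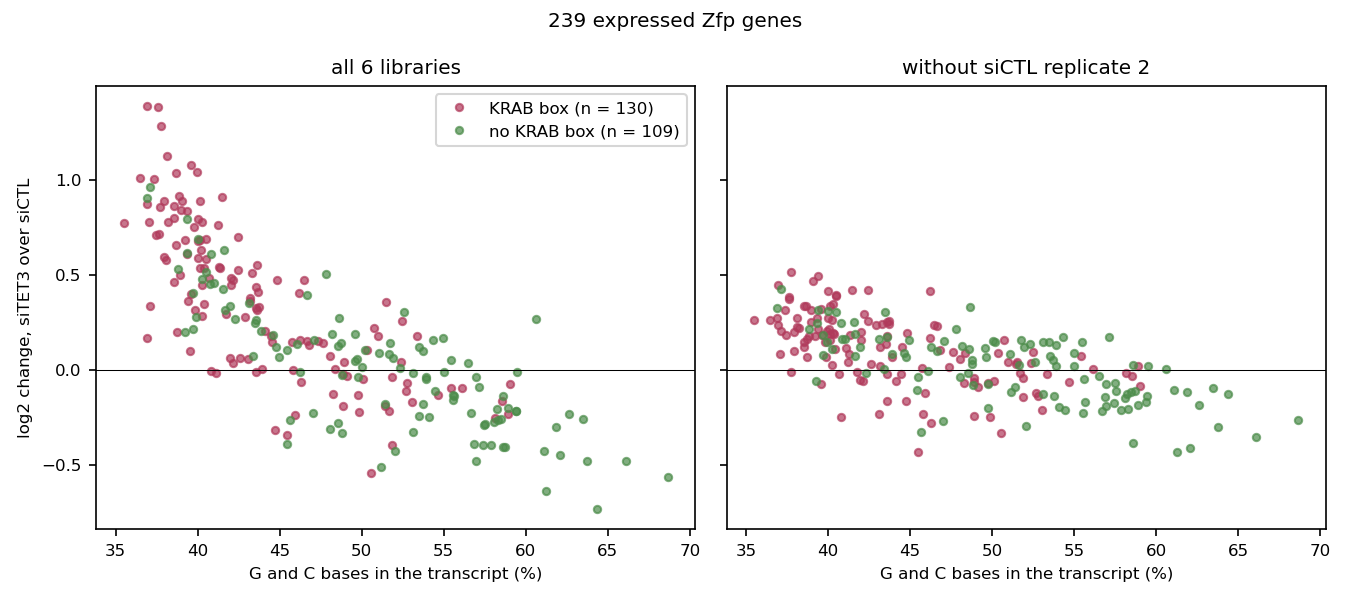
The log2 change (siTET3 over siCTL, vertical axis) of each of the 239 Zfp genes against the G and C share of its transcript in percent, with all 6 libraries (left) and without siCTL replicate 2 (right). Points fall from left to right in both panels, with a smaller spread on the right.

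In transcripts under 40% G and C the 47 Zfp genes had a median log2 change of 0.77 and all were positive, while 457 other genes in that range had 0.50 with 94.7% positive. Between 40 and 45% the medians were 0.43 for 67 Zfp genes and 0.26 for 1955 others. From 45 to 50% they were 0.04 and 0.08, from 50 to 55% -0.02 and -0.06, and over 55% -0.23 and -0.20. With siCTL replicate 2 left out the lowest bin gave 0.22 and 0.18 and the highest -0.12 and -0.12. The remaining siCTL libraries differed along the same trend. The median log2 difference of siCTL replicate 1 from replicate 3 was 0.29 and 0.27 in the lowest bin. In the highest bin it was -0.11 and -0.07. Within the lowest bin the 38 KRAB-box genes had a median of 0.78 and the 9 others 0.53, and without siCTL replicate 2 these were 0.23 and 0.22. In the bin from 45 to 50% the medians were 0.01 for 21 KRAB-box genes and 0.06 for 21 others. After the trend with base content was removed from every library, the median was 0.09 with a KRAB box and 0.03 without. The fit took in both groups, so a group difference that follows base content was removed as well.

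**Figure D3:**
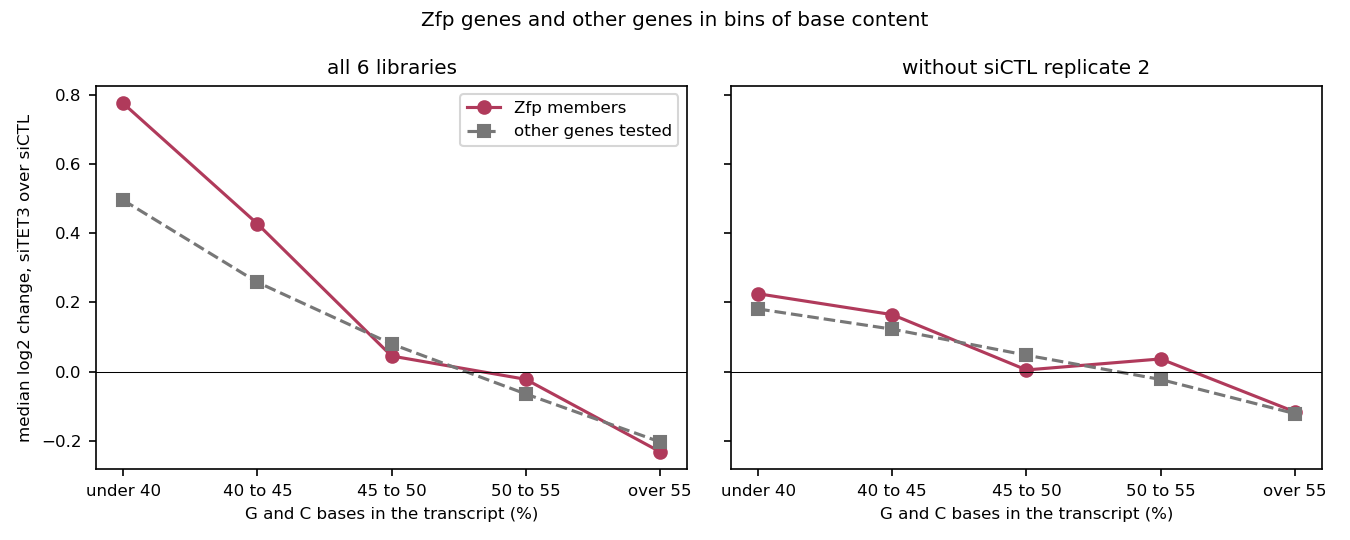
Median log2 change (siTET3 over siCTL) in bins of transcript G and C content in percent, for the 239 Zfp genes and the other tested genes, with all libraries (left) and without siCTL replicate 2 (right). In the lowest bin the Zfp median of 0.77 stood above the 0.50 of other genes, and without that library the values were 0.22 and 0.18.

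The 2 Zfp genes that DESeq2 called were lower in siTET3, and limma called neither with all 6 libraries. Zfp523 (ENSMUSG00000024220, chr17:28177129-28205886, plus strand, GRCm38), which has 7 C2H2 matches, is the mouse counterpart of human ZNF76 and a close relative of Zfp143. It had 1786, 2814 and 1910 normalised reads in the siCTL libraries, in order of replicate here and below, and 1374, 1349 and 1384 in siTET3. Every siTET3 library lay below every siCTL library, and siCTL replicate 2 was the high one. The log2 change was -0.63 (SE 0.18), a fold of 0.644 (95% interval 0.479 to 0.865), and limma gave an adjusted p of 0.302. Leaving out siCTL replicate 2 gave -0.43 and a limma adjusted p of 0.0208. With the trend with base content removed the change was -0.32, and -0.24 with that library left out as well, in a transcript with 61.2% G and C. DESeq2 gave an adjusted p of 0.0449 and edgeR 0.293, while the authors' deposited table lists 0.0501 for Zfp523. One gene overlaps its exons on the opposite strand.

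Zfp219 (ENSMUSG00000049295, chr14:52006077-52020733, minus strand), a partner of Sox9 in mouse cartilage, had 1145, 1164 and 1010 normalised reads in siCTL and 887, 817 and 736 in siTET3. The groups did not overlap, and here siCTL replicate 2 was close to its neighbours. Its log2 change was -0.44 (SE 0.11), a fold of 0.735 (95% interval 0.612 to 0.883), with a limma adjusted p of 0.263, 0.0925 without siCTL replicate 2, 0.0265 by DESeq2 and 0.256 by edgeR. The authors' deposited table gives Zfp219 an adjusted p of 0.0394. After removal of the base-content trend the log2 change was -0.11, in a transcript with 62.1% G and C. Exons of 3 genes, among them Arhgef40 and Tmem253, overlap it on the opposite strand, and without a stated strand setting for the counting, the reads of such pairs cannot be told apart.

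Zfp91, an E3 ubiquitin ligase known in human cells for acting on the kinase NIK of non-canonical NF-kB signalling, had 6458, 6884 and 5763 normalised reads in siCTL and 7930, 7453 and 7680 in siTET3. All siTET3 libraries were higher, with a log2 change of 0.27 (SE 0.10) and a limma adjusted p of 0.350. Leaving out siCTL replicate 2 gave 0.33 (limma adjusted p 0.0532), and removal of the trend with base content on top of that gave 0.30 (limma adjusted p 0.0450).

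Among the largest positive changes without overlap, 5 of 6 genes had a KRAB box and siCTL replicate 2 was the low library in all 6. Zfp953 (chr13:67339306-67360605, minus strand) had 123, 13.9 and 88.7 normalised reads in siCTL and 137, 165 and 130 in siTET3. Its log2 change was 1.39 with all libraries and 0.45 without siCTL replicate 2. Zfp953 and Zfp58 are among the members that reached the level of 100 in the siTET3 mean and not in the siCTL mean, so the group in which they are high brought them in. Zfp97 had 175, 19.0 and 146 in siCTL and 191, 187 and 255 in siTET3, a log2 change of 1.39 that was 0.38 without that library.
Zfp595 (chr13:67312998-67332570, minus strand) had 168, 27.9 and 122 in siCTL and 194, 208 and 214 in siTET3. The low library stood far under the next one, and the siTET3 libraries were close together. For Zfp595 the log2 change was 1.29 (SE 0.63, limma adjusted p 0.383), and 0.52 without siCTL replicate 2. Zfp65 had 270, 95 and 199 in siCTL and 318, 321 and 323 in siTET3, with log2 changes of 0.89 and 0.47. Zfp58 and Zfp654 both had a log2 change of 0.91 with all libraries, and 0.42 and 0.33 without siCTL replicate 2. Zfp654 is the one without a KRAB box, and its transcript has 36.9% G and C bases, as that of Zfp953 does. Of these 6, none had a limma adjusted p under 0.374.

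The largest negative changes without overlap were those of Zfp523, Zfp30, Zfp622, Zfp579, Zfp219 and Zfp444. Only Zfp30 among them has a KRAB box. It had 105, 176 and 122 normalised reads in siCTL and 94.8, 94.0 and 81.5 in siTET3, a log2 change of -0.54, or -0.33 without siCTL replicate 2. Zfp579 had 315, 433 and 285 in siCTL and 280, 219 and 234 in siTET3, with log2 changes of -0.48 and -0.30. Zfp444 had 788, 1013 and 750 in siCTL and 677, 587 and 623 in siTET3, with -0.43 and -0.29. In each of these the highest library was siCTL replicate 2. The limma adjusted p of these 3 genes lay between 0.332 and 0.374.

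**Figure D4:**
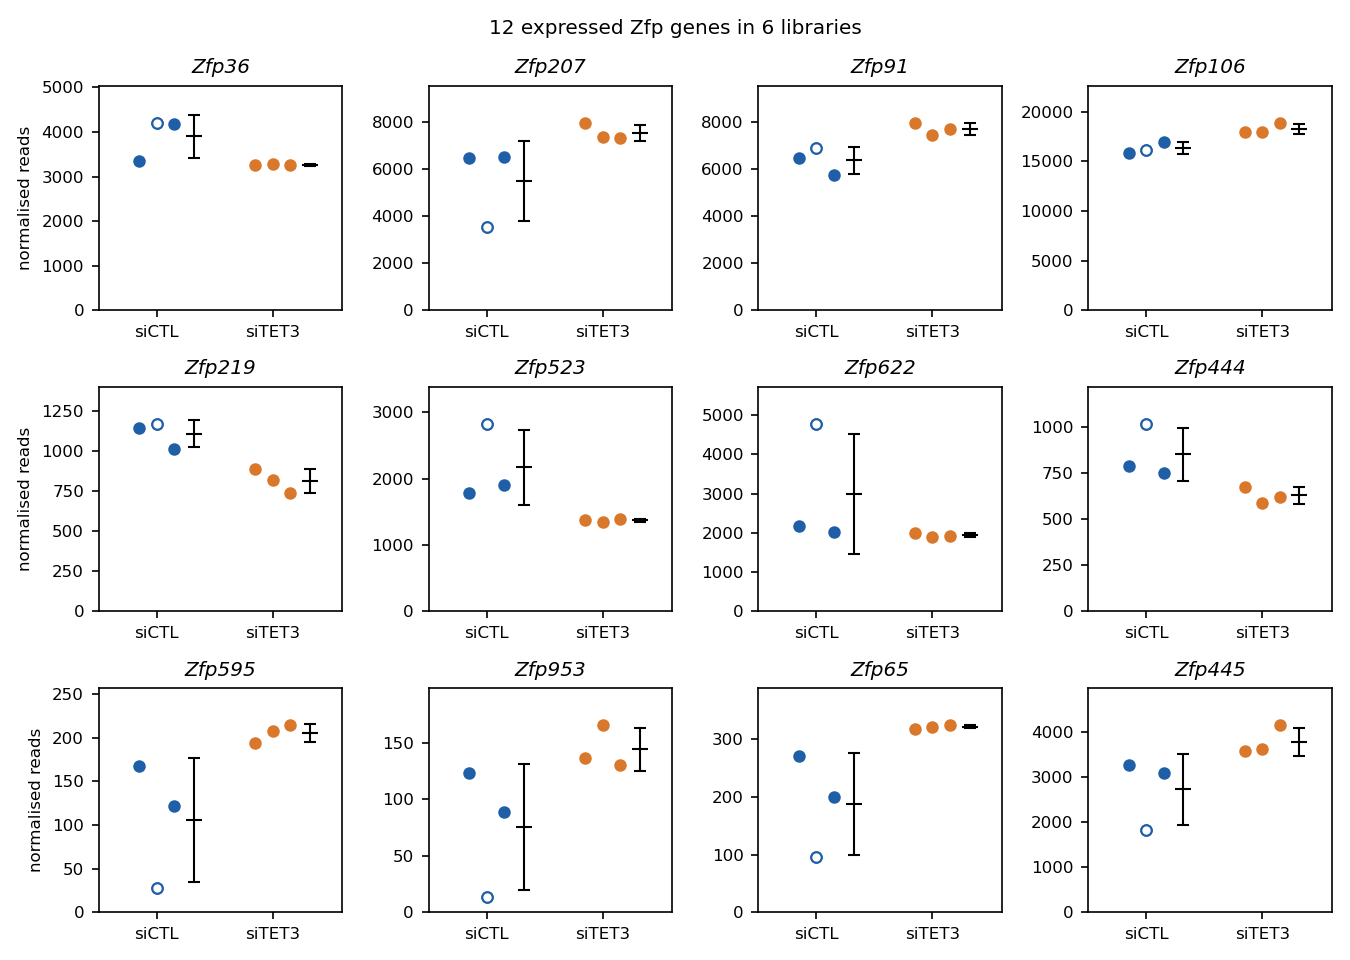
Normalised reads (vertical axes from 0) of 12 Zfp genes in each siCTL (blue) and siTET3 (orange) library, with mean and SD (black, n = 3) beside them; open circles are siCTL replicate 2. That library was far below the others for Zfp595, Zfp953, Zfp65, Zfp445 and Zfp207, and far above them for Zfp523 and Zfp622.

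Of the 8 Zfp genes acting on RNA or translation, none passed the limma threshold and 4 were positive, with a median log2 change of -0.03, or 0.10 without siCTL replicate 2. Zfp36 (chr7:28376784-28380253, minus strand) had 3343, 4194 and 4177 normalised reads in siCTL and 3268, 3293 and 3250 in siTET3. The siTET3 libraries were nearly equal and lay just below the lowest siCTL library. Its log2 change was -0.25 (SE 0.11), a fold of 0.842 (95% interval 0.698 to 1.02), with a limma adjusted p of 0.378. Zfp106, an RNA-binding protein needed for motor neuron upkeep in mice, had 15835, 16181 and 16955 normalised reads in siCTL and 17918, 17955 and 18810 in siTET3, a log2 change of 0.16 (limma adjusted p 0.389). Zfp622, whose human counterpart takes part in maturation of the large ribosomal subunit, had 2170, 4761 and 2034 in siCTL and 2002, 1895 and 1922 in siTET3. Its -0.51 was -0.12 without siCTL replicate 2. Zfp830, linked to splicing and genome upkeep in mice, showed the same high library, with 728, 1756 and 835 in siCTL and 836, 785 and 914 in siTET3, and its log2 change of -0.28 became 0.11 without it.
The nuclear protein Zfp638 went the other way in that library, with 3262, 1783 and 3364 in siCTL and 3562, 3519 and 4080 in siTET3, a log2 change of 0.46, or 0.16 without it. Zfp326, which in human cells links transcript elongation to splicing, had 772, 863 and 748 in siCTL and 981, 906 and 937 in siTET3, with no overlap, a log2 change of 0.25 and a limma adjusted p of 0.371. Zfp598, which in human cells marks collided ribosomes with ubiquitin, and the double-stranded RNA binder Zfp346 had log2 changes of -0.21 and 0.17. After removal of the trend with base content Zfp598 turned to 0.05.

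Of the 18 listed genes acting at promoters, enhancers and loops, 16 were expressed, and Zfp423 and Zfp521 were at 0 in every library. None of the 16 passed the limma threshold, 11 were positive and the median log2 change was 0.13, or 0.12 without siCTL replicate 2. Zfp219, described above, is one of them, and it was called lower by DESeq2 and, in the authors' deposited table, by the authors. Zfp143, an activator that binds promoters and loop anchors, had 1372, 1324 and 1572 normalised reads in siCTL and 1493, 1453 and 1692 in siTET3, and the groups overlapped (log2 change 0.12). Zfp384 had 1587, 1737 and 1785 in siCTL and 1809, 1933 and 1958 in siTET3, a log2 change of 0.16. Zfp217, a corepressor that works with the demethylase Lsd1, had 1461, 1547 and 1552 in siCTL and 1644, 1654 and 1742 in siTET3, with 0.14. In both of these the groups did not overlap and siCTL replicate 2 lay within its group. Zfp335, a component of a histone H3 methyltransferase complex, had 2082, 2448 and 2382 in siCTL and 1961, 2021 and 1963 in siTET3, a log2 change of -0.21. For these 4 genes limma gave adjusted p-values between 0.378 and 0.528.
Zfp410, known in mice as an activator of the remodeller gene Chd4, had 905, 774 and 899 in siCTL and 938, 978 and 1022 in siTET3 (log2 change 0.19). Chd4 itself had 12137, 24272 and 14324 in siCTL and 14139, 14175 and 13841 in siTET3, so its highest library was siCTL replicate 2, the lowest one for Zfp410. Zfp644, a partner of the methyltransferase G9a, had 924, 576 and 742 in siCTL and 1019, 960 and 983 in siTET3, a log2 change of 0.43, or 0.25 without siCTL replicate 2. Zfp148 and Zfp281, which bind GC-rich promoters, had 0.28 and 0.36, or 0.15 and 0.17 without that library. Zfp148 turned to -0.16 when the trend with base content was removed. Zfp24 and Zfp703 had log2 changes of 0.46 and 0.27, or 0.25 and 0.0089 without siCTL replicate 2. Zfp263, Zfp609 and Zfp652 had 0.05, 0.01 and -0.01, or 0.07, 0.14 and 0.13 without it, so the last of these turned. Zfp516, which activates the brown fat gene Ucp1 in mice, had -0.17, or -0.14 without siCTL replicate 2, and Zfp462 -0.31, or -0.04 without it. With the trend removed Zfp143 and Zfp335 turned as well, to -0.03 and 0.04.

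Of the 9 listed genes that silence imprints and retroelements, 5 were expressed. Zfp57, an imprint keeper in embryos, and Zfp708 were at 0 in every library, Zfp819 was between 0 and 9.26 normalised reads, and Zfp600 between 0 and 3.80. The 5 were all positive, none passed the limma threshold, and the median log2 change was 0.45, or 0.16 without siCTL replicate 2. Zfp445 (chr9:122844529-122866006, minus strand), which acts beside Zfp57 at imprints, had 3267, 1821 and 3106 normalised reads in siCTL and 3578, 3631 and 4153 in siTET3. Its log2 change was 0.51 (SE 0.23, limma adjusted p 0.378), and 0.25 without the low siCTL replicate 2. Zfp809, which recognises the primer binding site of murine leukaemia viruses, had 1306, 1046 and 1479 in siCTL and 1343, 1412 and 1458 in siTET3. Its groups overlapped, and its log2 change of 0.15 was 0.01 without siCTL replicate 2. Zfp568, a silencer of a placental Igf2 promoter in mice, had 559, 486 and 545 in siCTL and 620, 647 and 588 in siTET3, with no overlap and a log2 change of 0.22 (limma adjusted p 0.378). Zfp961 and Zfp932 had log2 changes of 0.45 and 0.47, or 0.16 and 0.15 without siCTL replicate 2, and 45.2% of the 50-base windows of Zfp932 recur in other genes.

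Of the 9 genes listed for mitosis, ubiquitin, SUMO and signalling, Zfp366 was at 0 and the other 8 were expressed. By limma none passed the threshold, 6 were positive, and the median log2 change was 0.12, or 0.13 without siCTL replicate 2. Zfp207 (chr11:80383279-80405733, plus strand), which binds Bub3 and spindle microtubules, had 6483, 3547 and 6498 normalised reads in siCTL and 7947, 7379 and 7336 in siTET3. Its log2 change was 0.51 (SE 0.24, limma adjusted p 0.382), or 0.22 without the low siCTL replicate 2. Zfp341, which in human cells drives STAT3 transcription, had 221, 243 and 248 in siCTL and 189, 207 and 148 in siTET3. Its groups did not overlap, with a log2 change of -0.40 and a limma adjusted p of 0.374. Zfp110 and Zfp369, proteins that bind neurotrophin receptors, had log2 changes of 0.47 and 0.14. Without siCTL replicate 2 these were 0.24 and 0.09. Zfp451, a SUMO ligase, had 0.11, and Zfp746, a repressor known as a parkin substrate, had -0.09. Both turned without siCTL replicate 2, to -0.03 and 0.0068, and after removal of the trend with base content, to -0.02 and 0.08. Zfp318 had 0.07, which turned to -0.08 after that removal.

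The members lay on every autosome and the X chromosome, with 64 on chromosome 7, 32 on chromosome 17 and 17 each on chromosomes 8 and 13. Joined where neighbouring members were at most 1 Mb apart, 118 of them lay in 15 clusters of 5 or more and 81 stood alone. The cluster at chr17:21008903-23193252 held 17 members, all with a KRAB box. Its median log2 change was 0.78 (range 0.20 to 1.04), all 17 genes had their lowest value in siCTL replicate 2, and without that library the median was 0.21. The cluster at chr13:67121660-67729173 held 9 KRAB-box members with a median of 0.89 (range 0.48 to 1.39), also all lowest in siCTL replicate 2, and the median without it was 0.34. Their median transcript G and C contents were 38.5% and 39.1%. Both clusters hold members that reached the required level in the siTET3 mean and not in the siCTL mean. These include Zfp983 on chromosome 17, and Zfp953 and Zfp58 on chromosome 13. The group in which they are high brought them in, so the cluster medians and ranges are not free of that choice. Among all 239 members, 8 reached the level in the siTET3 mean only and 3 in the siCTL mean only.
Of the 8 such clusters on chromosome 7, 4 had a median log2 change below 0. The one at chr7:29768552-30169750, with 12 members of which 9 have a KRAB box and a median G and C content of 48.2%, had a median log2 change of 0.04. At chr7:127233061-127885996, 10 members at 53.8% had -0.07, and at chr7:4915217-5053723, 5 members at 63.5%, none with a KRAB box, had -0.25 with all 5 negative. On the same chromosome the cluster at chr7:41633203-43593235, with 6 KRAB-box members at 40.2%, had 0.69, or 0.26 without siCTL replicate 2.

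**Figure D5:**
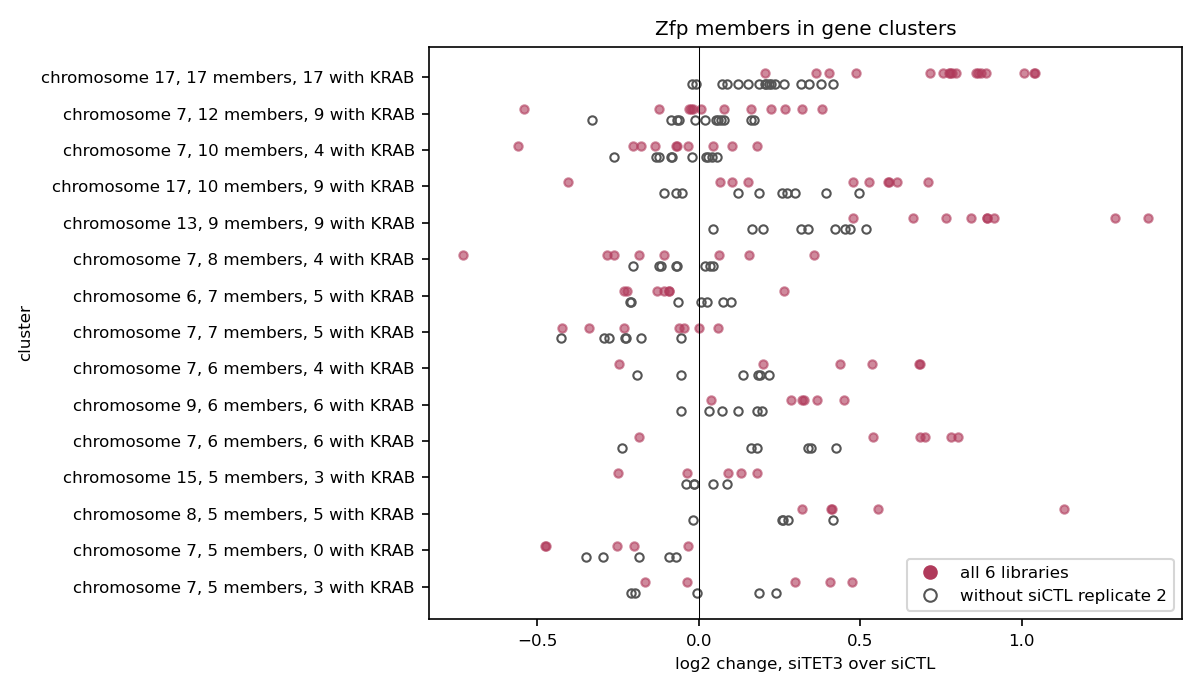
The log2 change (siTET3 over siCTL, horizontal axis) of each Zfp gene in 15 clusters of 5 or more, with all 6 libraries (filled) and without siCTL replicate 2 (open). The 17-gene cluster on chromosome 17 and the 9-gene cluster on chromosome 13 had medians of 0.78 and 0.89, and 0.21 and 0.34 without that library.

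Some members share sequence, which the authors' counting could split between copies. In 18 of the 239 genes at least 20% of the 50-base windows of their transcripts recur in transcripts of other genes. The values of these 18 are uncertain. They are led by Zfp97 (73.4%, mostly with Zfp960), Zfp935 (64.7%, mostly with the other identifier of that symbol) and Zfp59 (52.4%). Zfp58, among the largest positive changes above, is another of them, at 50.2%, mostly with Gm26965, which overlaps it on the same strand. Zfp595 and Zfp953 overlap the same-strand gene Gm28044. In 197 members under 5% of windows recur. The 97 KRAB-box genes among these had a median log2 change of 0.28, or 0.09 without siCTL replicate 2. Exons of 62 members overlap a gene on the opposite strand and those of 22 a gene on the same strand.

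KRAB-box genes under other symbols carry the same silencing domain. Each group here holds only genes with a mean of at least 100 normalised reads, as the Zfp genes do. The 37 such KRAB-box genes had a median log2 change of 0.47, or 0.13 without siCTL replicate 2. Their median G and C content was 40.4%, and siCTL replicate 2 was the lowest library for 83.8%. The 36 Zbtb genes, zinc finger proteins with a BTB domain, had a median of -0.01 at 50.8% G and C. The 11 Klf genes had 0.04 at 47.5% and the 16 Zkscan and Zscan genes 0.00 at 50.7%. No gene of these 4 groups passed the limma threshold.

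Of 22 partners of KRAB silencing, all tested, none was called by limma and 11 were positive, with a median log2 change of 0.01. Trim28, the corepressor that KRAB boxes bind, had 6228, 8442 and 6999 normalised reads in siCTL and 6716, 6880 and 6726 in siTET3. The siTET3 values lay inside the siCTL range. Setdb1 had 3253, 3073 and 3516 in siCTL and 3631, 3869 and 3929 in siTET3, with no overlap, a log2 change of 0.22 and a limma adjusted p of 0.374. Chd3 was lower without overlap, with 3821, 6833 and 4147 in siCTL and 3677, 3434 and 3593 in siTET3. Its log2 change was -0.42 (limma adjusted p 0.389), or -0.16 without siCTL replicate 2. Cbx5, which encodes HP1 alpha, had 4874, 3302 and 4463 in siCTL and 6338, 6283 and 6145 in siTET3, a log2 change of 0.59 (limma adjusted p 0.282). DESeq2 called Cbx5 with all 6 libraries, with an adjusted p of 0.0355, and edgeR did not, with 0.294. The authors' deposited table gives Cbx5 an adjusted p of 0.0409. For Cbx5 the change was 0.42 without siCTL replicate 2, with a limma adjusted p of 0.0173. Pphln1 and Morc3, linked to HUSH silencing and to chromatin binding, had log2 changes of 0.34 and 0.35.

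Of 28 partners and known targets of Zfp36, 26 were tested, 13 were positive and 13 negative. By limma 1 was called lower, Il1b, which encodes interleukin 1 beta. Il1b had 664, 652 and 704 normalised reads in siCTL and 296, 302 and 325 in siTET3, a fold of 0.457 (95% interval 0.391 to 0.534) with a limma adjusted p of 0.00783. Against that 1 lower call of 26, 0.0604% of all tested genes were called lower. With any 1 siTET3 library left out the log2 change of Il1b was -1.17 to -1.10, close to the -1.13 with all libraries, and the limma adjusted p was 0.104 to 0.125, where 2 to 3 of all tested genes passed. Without siCTL replicate 3 the values for Il1b were -1.10 and 0.0791. Il1b did not pass under 6 of the 16 alternatives run. Among these 6 was the replicate block with the trend with base content removed, with a limma adjusted p of 0.0784. By DESeq2 the adjusted p of Il1b was 5.01e-21. Tnf, the best known target, had 16272, 14847 and 18190 in siCTL and 17430, 19357 and 19386 in siTET3, with overlap and a log2 change of 0.19. With siCTL replicate 2 left out there were 3 calls of 26, all lower (Il1b, Ccl2 and Ier3, the last pair named because the count is small), against 1.06% of all tested genes called lower. The relatives Zfp36l1 and Zfp36l2 had log2 changes of -0.00 and -0.14.

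Levels between genes are compared per kilobase of transcript. The median was 88.1 normalised reads per kb in KRAB-box genes and 212 in the others. Among the 20 highest genes 1 had a KRAB box, Zfp809, and among the 20 lowest 15 had one. Zfp207 stood first, at 3527 ± 1088 (SD, n = 3) normalised reads per kb in siCTL and 4836 ± 218 in siTET3. Zfp330 followed with 3886 ± 1421 and 2852 ± 136, then Zfp740 with 2764 ± 216 and 2935 ± 142, Zfp106 with 1797 ± 63.1 and 2006 ± 55.6, and Zfp36 with 1399 ± 174 and 1172 ± 7.69. In siCTL the Zfp330 mean was above that of Zfp207 through replicate 2 alone. Without that library the siCTL means were 4155 per kb for Zfp207 and 3066 for Zfp330, so Zfp207 was then first in both groups. Zfp710, among the 6 highest before division by length, had 3552, 4837 and 4433 normalised reads in siCTL and 4432, 4442 and 4339 in siTET3.

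Spread within groups was largest for Zfp428, Zfp40, Zfp622, Zfp994, Zfp691 and Zfp830. For Zfp428 the 291 normalised reads of siCTL replicate 2 stood against 86.8 and 77.3 in the other siCTL libraries and 61.3 to 91.7 in siTET3. In Zfp40 the same library was low, at 30.4 against 218 and 165, and siTET3 lay between 148 and 266. Zfp994 was low there too, at 51.9 against 288 and 167, and Zfp691 high, at 304 against 118 and 153. Just inside the level of 100 were Zfp983 (mean 102.7), Zfp418 (102.1) and Zfp420 (101.7), and just outside it were Zfp235 (99.4), Zfp563 (95.7) and Zfp873 (95.5). Only through the siCTL mean did 3 members reach the level in 1 group, and 8 did so only through the siTET3 mean.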

How the data were processed

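RNA was sequenced from 6 libraries of RAW 264.7 cells with a stranded mRNA kit, per the labels' protocols; for the aligner, the counter and its strand setting the sources used here give nothing. The authors deposited a signal value per gene and library, which is a gene count divided by 1 size factor per library: all values were whole multiples of 1 read within 0.001 reads. Beside these values the authors deposited log2 fold changes (siCTL over siTET3, turned round here), p-values, adjusted p-values and, as score columns not used here, a standard error and a test statistic, per the file headers. The build was GRCm38 (mm10), per the submitters' processing notes.

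Members, lists and tests were chosen with earlier results of these data known. Genes were tested by limma 3.58.1 (R 4.3.3) with a variance trend on log2(value + 1), genes with a mean of at least 10, group as the only term, adjusted over 11591 genes by Benjamini-Hochberg at 0.05; intervals are 95%. A fold is on that scale and understates changes of low genes. edgeR 4.0.16 and DESeq2 1.42.0 were run on the recovered reads as alternatives, beside other pseudocounts, filters, scalings, a replicate block, removal of the base-content trend (a spline with 5 degrees of freedom on transcript G and C share) and leaving out each library. Added after seeing the data were the count of genes without overlap and the order of Zfp207 and Zfp330 with siCTL replicate 2 left out, and the share of promoters with GGACTACA outside the cluster it was picked from. The limma step was run on simulated independent counts. These held no deviant library and no trend with base content, so the run says nothing of calls under either.

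Transcripts, coordinates and coding sequences came from GENCODE M21 (GRCm38), from the transcript with the longest coding sequence of each gene; all 239 members matched by identifier, 204 of them with the same version. KRAB and SCAN domains were found with profiles (pyhmmer 0.12.3, E-value under 1e-05). The symbol Zfp935 stands on 2 identifiers, 1 of which is a member. Genes were named by rule: members past the threshold, the 6 largest changes each way without overlap, the 6 highest, the 6 most variable, 3 on each side of the level, every member of the role lists, the called or otherwise first 3 genes by p of the partner lists, and Tet3; others are named where a count or comparison needed them.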

Additional observations from a re-analysis of the deposited data

How the results depend on the processing

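The labels number the replicates alike in both groups. Deviations of same-numbered libraries from their group means had correlations of 0.03, -0.06 and -0.10, which shows no pairing. With 3 libraries per group and siCTL replicate 2 extreme, these values cannot exclude one. With the replicate block limma still called 0 members higher and 0 lower, and Il1b had an adjusted p of 0.115. Leaving out each library in turn gave 0 members higher and 0 to 1 lower, and median log2 changes of 0.082 to 0.200 for all members, 0.121 to 0.468 with a KRAB box, -0.0398 to 0.0561 without one, -0.0773 to 0.102 for the RNA list, 0.0864 to 0.177 for the promoter list, 0.161 to 0.594 for the silencing list, 0.110 to 0.219 for the mitosis and ubiquitin list, -0.077 to 0.133 for KRAB partners, -0.0511 to 0.120 for Zfp36 partners and -0.100 to -0.009 for the Tet3 log2 change.

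DESeq2 called 2 members lower. When siCTL replicate 2 was left out and the trend with base content removed, 1 member was called higher, and the medians were 0.0179 for all members, 0.0112 with a KRAB box, 0.0317 without one, 0.0492 for the RNA list, 0.0538 for the promoter list, 0.0157 for the silencing list, 0.0803 for the mitosis and ubiquitin list and 0.0671 for Tet3. With the trend removed from all 6 libraries, with or without the replicate block, the medians were 0.0598 for all members, 0.0942 with a KRAB box, 0.0322 without one, 0.0406 for the RNA list and -0.0220 for Zfp36 partners, both of which turned, 0.0604 for the promoter list, 0.152 for the silencing list, 0.0825 for the mitosis and ubiquitin list, 0.0605 for KRAB partners and 0.224 for Tet3. Scaling to the library total moved the median of all tested genes to 0.0793 and gave 0.098 without a KRAB box, 0.0575, 0.217 and 0.208 for the RNA, promoter and mitosis lists and 0.0286 for Tet3. The sign of the Tet3 change turned under the scaling and under each removal of the trend. Without a KRAB box the median was -0.00520 by edgeR and -0.000170 by DESeq2. By edgeR and DESeq2 the median of Zfp36 partners turned to -0.0449 and -0.0405, and that of KRAB partners to -0.0095 and -0.0054. The cause was not tested. Of 56 named members, 36 kept their sign under every alternative run and 20 did not. Those 20 are Zfp143, Zfp148, Zfp318, Zfp335, Zfp420, Zfp451, Zfp598, Zfp746 and Zfp932, which turned with the trend removed, Zfp40, Zfp652, Zfp691 and Zfp830, which turned without siCTL replicate 2, Zfp428, Zfp638, Zfp809, Zfp983 and Zfp994, which turned only with both, Zfp710, which turned without siCTL replicate 1, and Zfp609, which turned without siCTL replicate 1 and by edgeR and DESeq2.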
